A study of Hypsibius exemplaris with 24 samples.

Results

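Of the 20853 transcripts measured in whole *Hypsibius exemplaris*, a freshwater tardigrade, 91 transcripts of 90 loci stood near the control level at the end of a bleomycin exposure and above it at every sampling time after the animals had been washed and moved to plates. Levels are scaled TPM (a length-corrected share of each library's transcripts) divided by a scale factor per library, and differences are taken between group means of log2(scaled TPM + 1). The 91 were chosen by their measured differences from control. A transcript was taken when it had at least 5 TPM in at least 3 libraries, lay within 0.5 of the control mean at 0 h on this scale, and lay at least 1.2 above it at 1, 3, 6, 9, 12 and 24 h. These differences are therefore given below as a description and with no test. Contrasts between recovery times were tested, but they use group means that also entered the rule. A transcript that went back under the threshold at any time was removed, so falls were held down, and no count of rises or falls below is read as particular to the 91.

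Each library was made from a pool of 50 animals. Control pools spent 24 h in mineral water, and all other pools spent 24 h in 100 µM bleomycin. The control and the 0 h pools were frozen at that point; the remaining pools were washed, put on agar plates with the alga *Chlorella* as food at 18 °C, and frozen 1, 3, 6, 9, 12 or 24 h later. There were 8 groups of 3 libraries, which the labels call biological replicates. No group was washed, moved and fed without bleomycin, so a response to the drug, to its removal, to the plates, to the food and to elapsed time cannot be told apart in these transcripts. Whole animals were sequenced, so a change in the share of a tissue and a change of RNA per cell cannot be told apart either.

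Bleomycin binds DNA and cuts its strands, and is used to mimic the damage done by ionizing radiation. Tardigrades are known for surviving such damage, and transcripts of DNA repair genes are known to become abundant in this species after irradiation or bleomycin. Animals that are fed again after a stay in plain water also resume digestion, growth and moulting, processes that have transcript programmes of their own in other invertebrates. The deposited table gives identifiers without gene names, so none of the 91 transcripts can be assigned to such a process here, and they are described by level and time course.

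The choice narrowed in steps. Of 12916 transcripts that passed the level filter, 7861 lay within 0.5 of the control at 0 h, and 245 of these were at least 1.2 above control at 1 h. Adding 3 h left 151, 6 h left 117, 9 h left 102, 12 h left 96 and 24 h left 91. With the directions turned, 103 transcripts near control at 0 h were at least 1.2 below it at each later time, and 175 transcripts were at least 1.2 above control at all 7 times, 0 h included. Just inside the threshold of 1.2, BV898_08727 had a smallest difference of 1.203 and BV898_08576 of 1.24. Just outside, BV898_04641 reached 1.199 and BV898_19514 reached 1.19, and 21 transcripts in all lay within 0.1 below the threshold. At 0 h, BV898_08883 was inside the limit at 0.49 and BV898_12274 at 0.46, whereas BV898_16791 at 0.51 and BV898_10947 at 0.52 fell outside it.

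The 91 transcripts had low levels before transfer, which the choice favours: the level filter could be passed through the recovery libraries alone. Their mean control level had a median of 1.96 scaled TPM, with quartiles of 0.711 and 5.60, against a median of 19.9 over all 12916 transcripts that passed the filter. In the control 32 of them averaged under 1 scaled TPM, 42 between 1 and 10, and 17 at least 10. Over the 18 recovery libraries their mean level had a median of 17.3 scaled TPM, against 21.6 for all transcripts that passed the filter, and ranged from 3.82 to 475. In recovery 27 averaged under 10 scaled TPM, 53 between 10 and 100, and 11 at least 100. The 5 most abundant held 39.4% of the summed recovery level of the 91. Among them was BV898_19641, with 68.4, 0 and 139 scaled TPM in the controls and 22.5, 13.0 and 12.0 in the 0 h libraries. Its 1 h libraries held 650, 431 and 440 and those of 9 h 156, 166 and 150. The 0 in control replicate 2 lowers its control mean on the log2 scale, and its place within the rule depends on that value.

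In deposited TPM, which involve no scaling between libraries, the 91 transcripts accounted for 0.0785% ± 0.0272 of the control total and 0.0803% ± 0.0130 of the 0 h total (SD, n = 3). Libraries of 1, 3, 6 and 9 h had shares of 0.376% ± 0.0273, 0.421% ± 0.0759, 0.372% ± 0.0542 and 0.381% ± 0.0272, in that order (SD, n = 3). Those of 12 and 24 h had 0.497% ± 0.0321 and 0.440% ± 0.0730 (SD, n = 3). By library, the 6 libraries of control and 0 h lay between 0.0499% and 0.104% and the 18 recovery libraries between 0.336% and 0.533%, a separation that the choice of transcripts imposes. The lowest share was that of control replicate 2, in which 32 of the 91 were listed at 0, against 12 and 10 in control replicates 1 and 3. In 0 h replicate 2, 27 were listed at 0, against 17 and 16 in 0 h replicates 1 and 3. Control replicate 2 and 0 h replicate 2 also listed the fewest transcripts above 0 in their groups, 15829 and 14984.

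**Figure D1:**
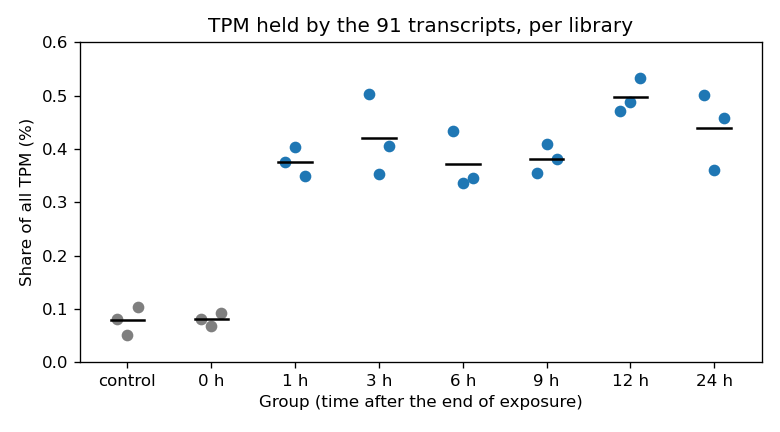
Share of all TPM (y axis, percent, deposited TPM) held by the 91 transcripts in each library (points) of the 8 groups (x axis), with group means as bars (n = 3). The 6 control and 0 h libraries sit at or below 0.104% and the 18 recovery libraries at or above 0.336%.

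The rule imposes a step between 0 h and 1 h, within 0.5 of control before it and at least 1.2 above control after it. From 1 h the median over the 91 moved little until 9 h. The median log2 difference from control was 0.14 in the 0 h group. For 1, 3, 6, 9, 12 and 24 h it was 2.14, 2.27, 2.19, 2.24, 2.77 and 2.52, in that order. At 0 h, 61 transcripts lay above the control mean and 26 below it, all within the limit of 0.5, and the other 4 were listed at 0 in all 6 libraries of control and 0 h. All 18 recovery libraries lay above all 6 libraries of control and 0 h for 62 of the 91, against 3.76% of the transcripts that passed the filter. Against the 3 controls alone the count was 65, beside 8.89%. Since the rule used those differences, nothing is read from these counts. For the remaining 29 at least 1 recovery library overlapped with control or 0 h. BV898_08576 was a clear case, with 33.2, 0 and 1.45 scaled TPM in the controls and 0, 0 and 40.2 in the 0 h libraries. Its 1 h libraries held 2.95, 74.5 and 50.4, and those of 12 h 1.14, 29.2 and 16.2. BV898_10850 (1.33, 66.1 and 43.6 at 1 h) and BV898_07578 (12.4, 144 and 91.1 at 1 h) were likewise lowest in replicate 1 of both 1 h and 12 h. So were BV898_10847, BV898_10849, BV898_17508, BV898_07783 and BV898_17605. Not all of the 91 were: BV898_05385 was highest in 1 h replicate 1. The cause of this shared pattern was not tested. In at least 1 recovery library, 12 of the 91 were listed at 0. In 12 h replicate 1 this held for 6, against no more than 2 in any other recovery library. At least 2 at every recovery time was reached by 24 transcripts, and at least 3 by 3 transcripts.

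**Figure D2:**
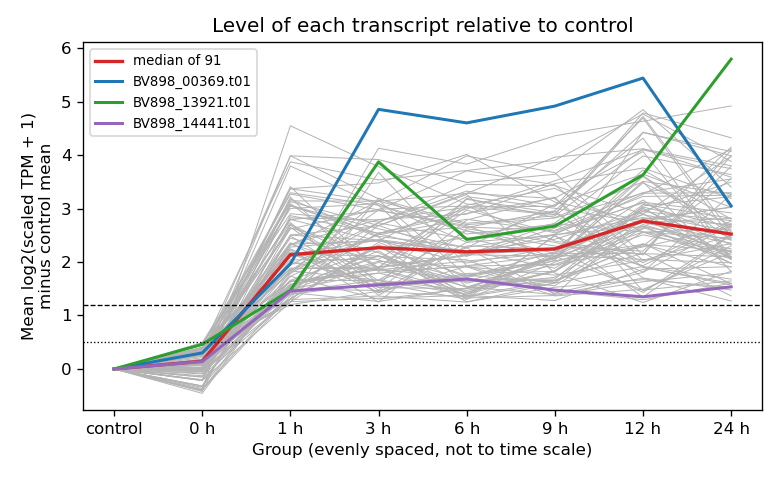
Mean log2(scaled TPM + 1) minus the control mean (y axis) for each of the 91 transcripts (grey lines) and their median (red) in the 8 groups (x axis, evenly spaced). The dashed line marks the threshold of 1.2 and the dotted line the upper limit of 0.5 at 0 h; the median steps from 0.14 at 0 h to 2.14 at 1 h, and BV898_00369, BV898_13921 and BV898_14441 show contrasting later courses.

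BV898_00369 had the largest mean difference from control over the recovery times, 4.14 on the log2 scale. The controls held 10.2, 20.7 and 15.2 scaled TPM and the 0 h libraries 15.1, 16.8 and 24.7. The 1 h libraries held 71.3, 41.2 and 76.0, those of 3 h 668, 398 and 357, and those of 6 h 401, 368 and 379. Replicates of 9 h were at 488, 391 and 565, those of 12 h at 414, 858 and 903, and those of 24 h at 181, 86.8 and 139. The 3 h to 12 h libraries thus formed a plateau, all far above those of 1 h and 24 h, which in turn did not overlap with the control. The rise from 1 h to 3 h was 2.89 ± 0.33 (SE, limma adjusted p = 3.61e-05), with no overlap of the 3 libraries on each side, and the fall from 12 h to 24 h was -2.39 ± 0.33 (SE, limma adjusted p = 1.26e-04), with no overlap of the 3 libraries on each side.

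BV898_16790 came next, with a mean difference of 3.94, and was near its 24 h level by 1 h. The controls held between 2.17 and 2.53 scaled TPM, the 0 h libraries 8.09, 2.11 and 2.13, and those of 1 h 49.3, 56.4 and 41.6. The 12 h libraries held 97.7, 71.7 and 109, all above those of 1 h, and the 24 h libraries 65.6, 30.2 and 59.4, which overlapped with those of 1 h. The F test over recovery times described below called it (limma adjusted p = 0.0451), and the contrast of 12 h with 9 h did not (limma adjusted p = 0.0565). BV898_04444 and BV898_00369 had the highest recovery levels. BV898_04444 had 48.1, 43.3 and 96.3 scaled TPM in the controls and 90.9, 58.9 and 64.5 in the 0 h libraries. The 1 h libraries held 360, 287 and 248 and those of 24 h 792, 461 and 546. It was higher at 24 h than at 1 h by 0.98 ± 0.29 (SE, limma adjusted p = 0.0154), with no overlap of the 3 libraries on each side.

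Whether the 91 transcripts varied among the recovery times was tested with a moderated F test over the 6 recovery groups, fitted across the 16490 transcripts that reached 1 TPM in 3 or more libraries. It called 40 of the 91, or 44.0%, at an adjusted p under 0.05, against 51.8% of all transcripts tested. The range of the 6 recovery means had a median of 1.45 on the log2 scale among the 91 and of 1.19 over the transcripts that passed the filter, but the replicates of the 91 also lay farther apart. The median SD between replicates at 1 h was 0.33 for the 91 and 0.21 for all, and at 24 h 0.49 and 0.41. For 51 transcripts the F test made no call, which does not show that their levels were constant. The smallest ranges were those of BV898_14441, 0.33, and BV898_12811, 0.49. BV898_12811 averaged 1.73 ± 0.240 scaled TPM in the control, and 7.52 ± 0.904, 11.1 ± 2.57 and 9.97 ± 2.44 after 1, 9 and 24 h of recovery (SD, n = 3). BV898_14441 averaged 3.47 ± 2.57 in the control and between 9.74 ± 4.04 and 12.3 ± 4.01 in the recovery groups (SD, n = 3), and overlapped with the control.

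Between 1 h and 3 h, 7 of the 91 transcripts rose and 1 fell, that is 7.69% and 1.10%, beside 4.54% and 3.13% of all transcripts tested. In either direction it was 8.79% beside 7.67%. The largest rises were those of BV898_00369 and BV898_08037. BV898_08037 had 3.39, 1.91 and 5.85 scaled TPM in the 1 h libraries, 55.4, 42.1 and 10.2 in those of 3 h, and no more than 1.28 in any control or 0 h library. Its rise was 2.76 ± 0.47 (SE, limma adjusted p = 0.00109), with no overlap of the 3 libraries on each side. The fall was that of BV898_17430, from between 24.0 and 26.7 at 1 h to 15.7, 12.7 and 14.0 at 3 h, a difference of -0.81 (limma, adjusted p = 0.0320), still above its 3.12 ± 0.842 in the control (SD, n = 3). The count of 8 was 5 without any single library of 1 h, and the call of BV898_17430 was lost without any single library of 1 h or 3 h (adjusted p of 0.0682 to 0.104). The median difference over the 91 was 0.05, against -0.01 for all transcripts tested.

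Between 3 h and 9 h hardly any call was made. From 3 h to 6 h 1 of the 91 fell (1.10%, beside 1.24% of all transcripts) and 0 rose (beside 0.473%). In either direction 1.72% of all transcripts were called. Without any adjustment 8 of the 91 (8.79%) had a p under 0.05, beside 2607 of 16490 (15.8%). The transcript that fell was BV898_19307, which spiked at 3 h: the 1 h libraries held 2.06, 0.747 and 1.97 scaled TPM, those of 3 h 19.1, 11.4 and 7.78, and those of 6 h 2.47, 2.95 and 3.24. Its fall was -1.75 ± 0.34 (SE, limma adjusted p = 0.00845), and the adjusted p became 0.0776 without 3 h replicate 1. The count was 2 without 3 h replicate 2. From 6 h to 9 h limma called 0 of the 91 and 0 of all transcripts, and 3 of the 91 had an unadjusted p under 0.05, beside 665 of 16490.

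Between 9 h and 12 h there were 22 rises and 3 falls among the 91, that is 24.2% and 3.30%, beside 14.4% and 12.2% of all transcripts tested, and the median difference was 0.55 over the 91 against 0.00 over all. The rule removed transcripts that fell under the threshold at 12 h, so this split is partly set by the choice, and it is relative to the median transcript. The scale factors of the 12 h libraries, 0.664 to 0.868, were below those of 9 h, 1.00 to 1.07. With TPM left unscaled the differences of all transcripts shifted by a median of -0.36 and the counts among the 91 became 8 rises and 3 falls. The share of all transcripts called with unscaled TPM was not computed, so nothing is read from these counts. The count of 25 was 15, 15 and 6 without replicates 1, 2 and 3 of 9 h, and 3 without 12 h replicate 3, the library with the lowest scale factor. In deposited TPM the share of the 91 was 0.472% or more in each 12 h library and 0.408% or less in each 9 h library. That share is bound by the same choice at 12 h and weighs the abundant transcripts most, so nothing is read from it about the rises.

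The largest rises at 12 h were those of BV898_19596 and BV898_18740. BV898_19596 was listed at 0 in all 6 libraries of control and 0 h, had 11.6, 18.2 and 10.0 scaled TPM in the 1 h libraries, 2.78, 6.87 and 1.30 in those of 9 h, and 14.6, 23.0 and 25.7 in those of 12 h. The rise from 9 h to 12 h was 2.40 ± 0.50 (SE, limma adjusted p = 0.00659), with no overlap of the 3 libraries on each side. BV898_18740 had 12.8, 12.4 and 16.5 in the 9 h libraries, 60.7, 35.1 and 65.2 in those of 12 h and 13.3, 6.09 and 15.2 in those of 24 h, a rise from 9 h to 12 h of 1.84 ± 0.46 (SE, limma adjusted p = 0.00984), for which the adjusted p was 0.0546 without 12 h replicate 3. The largest falls at 12 h were smaller. BV898_01651 went from 15.6, 22.4 and 21.6 to 12.9, 6.75 and 4.98, a difference of -1.26 (limma, adjusted p = 0.0157), which became 0.0896 without 12 h replicate 3 and 0.0580 without 9 h replicate 3. BV898_05067 went from 44.1, 39.2 and 42.4 to 23.0, 23.0 and 24.9, a difference of -0.80 (limma, adjusted p = 0.0458). Its groups did not overlap, but the call was lost in 14 of the 24 fits that each left out 1 library, with adjusted p up to 0.114. BV898_05067 had its highest mean in the 3 h group, whose libraries held 95.9, 47.6 and 45.3.

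Between 12 h and 24 h, 9 of the 91 transcripts fell and 0 rose, that is 9.89% and 0%, beside 9.35% and 10.6% of all transcripts tested and 19.9% in either direction. With TPM left unscaled 5 fell and 1 rose, and with a pseudocount of 5 in place of 1 it was 10 and 4, so the lack of rises depends on these settings. The share of all transcripts called in these settings was not computed. A change in the 91 therefore cannot be told apart from a change in all calls. Leaving out either 12 h replicate 3 or 24 h replicate 2 gave 4 in place of 9. Of the 22 that had risen from 9 h to 12 h, 6 fell from 12 h to 24 h and for the other 16 neither direction was called; the 2 contrasts share the 12 h libraries. The largest falls were those of BV898_00369 and BV898_12274. BV898_12274 had 4.24, 0.483 and 5.61 scaled TPM in the controls. The 9 h libraries held 35.8, 22.9 and 31.9, those of 12 h 101, 62.9 and 135, and those of 24 h 26.5, 8.97 and 29.3. Its fall was -2.25 ± 0.49 (SE, limma adjusted p = 0.00397), with no overlap of the 3 libraries on each side. BV898_12280 had a similar course, with 69.7, 38.1 and 48.3 in the 9 h libraries, 77.2, 71.9 and 146 in those of 12 h and 26.1, 15.7 and 26.8 in those of 24 h.

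**Figure D3:**
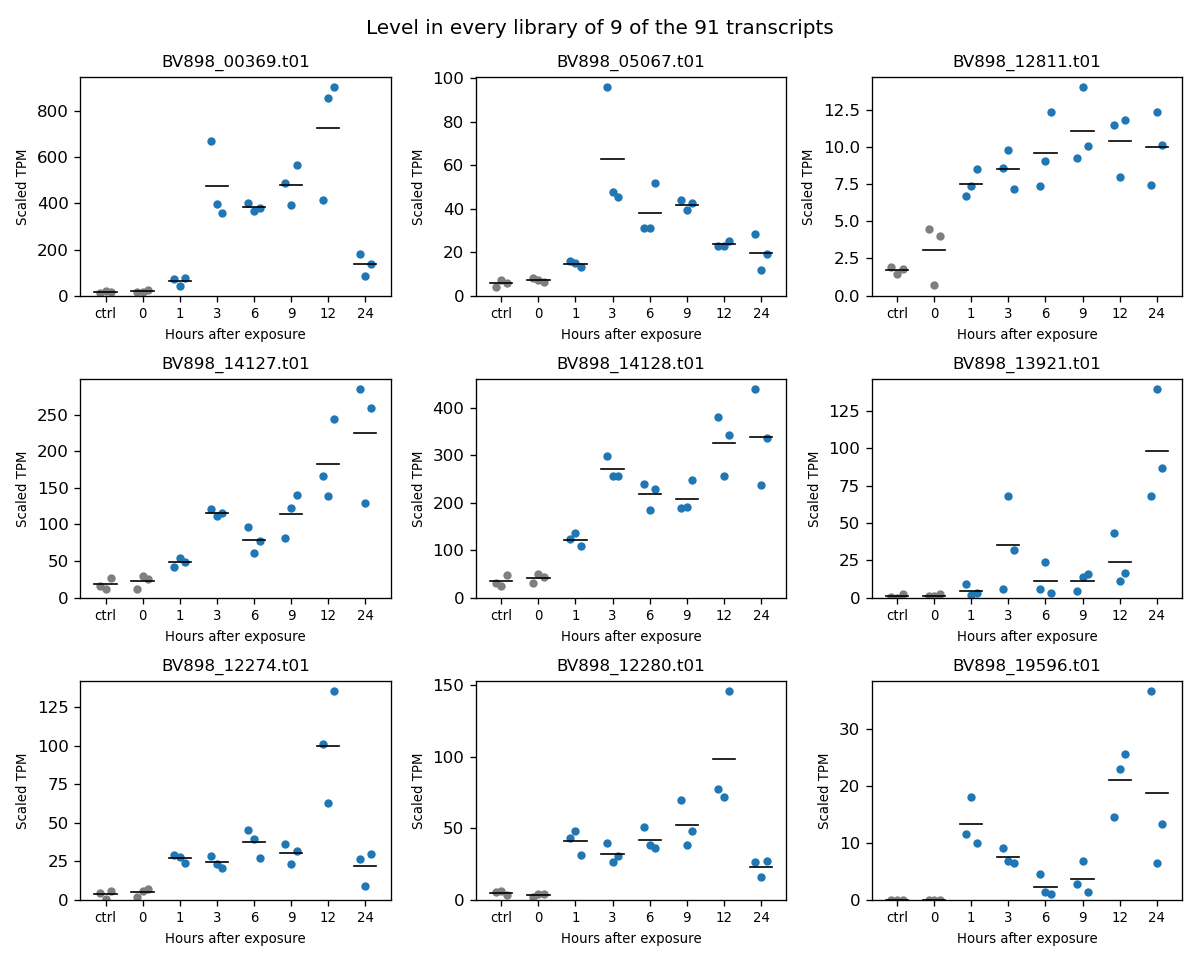
Scaled TPM (y axis, from 0) in every library (points) of control and of 0 to 24 h after exposure (x axis), with group means as bars (n = 3), for 9 of the 91 transcripts. BV898_00369 is highest from 3 h to 12 h and BV898_05067 at 3 h, and BV898_12811 varies little in recovery. BV898_14127, BV898_14128 and BV898_13921 have their highest mean at 24 h, with no rise called from 12 h to 24 h. BV898_12274 and BV898_12280 are highest at 12 h.

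Over the whole of recovery, 15 of the 91 transcripts were higher at 24 h than at 1 h and 1 was lower, that is 16.5% and 1.10%, beside 16.9% and 13.6% of all transcripts tested and 30.5% in either direction. Since each of the 91 had to be at least 1.2 above control at 24 h as well as at 1 h, the low share of falls follows in part from the rule, and nothing is read from it. The count of 16 was 10 without 24 h replicate 1. BV898_13921 rose most, from 9.18, 1.74 and 2.80 scaled TPM at 1 h to 68.2, 139 and 86.8 at 24 h, a difference of 4.32 ± 0.78 (SE, limma adjusted p = 4.69e-04), with no overlap of the 3 libraries on each side. Replicates of 3 h held 5.84, 68.1 and 32.2 and those of 6 h 6.14, 23.8 and 3.36. The 1 h libraries overlapped with the control, which was at 0.342, 0 and 2.72. BV898_08037 had 54.1, 35.9 and 68.8 in the 24 h libraries, higher than at 1 h by 3.55 ± 0.47 (SE, limma adjusted p = 2.68e-05), with no overlap of the 3 libraries on each side. BV898_12280 was the transcript that was lower, by -0.82 (limma, adjusted p = 0.0481), a call lost in 12 of the 24 fits without 1 library, with adjusted p up to 0.178.

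The highest of the 6 recovery means belonged to the 12 h group for 44 of the 91 transcripts and to the 24 h group for 22. The groups of 1, 3, 6 and 9 h had the highest mean for 6, 5, 10 and 4. The lowest mean belonged to 1 h for 25 and to 6 h for 24. With TPM left unscaled, 28 in place of 44 had their highest mean in the 12 h group. Among the 175 transcripts raised at all 7 times, 31.4% rose and 4.57% fell between 9 h and 12 h, and 2.86% rose and 14.3% fell between 12 h and 24 h. From 3 h to 6 h 6.86% of the 175 fell, and 18.9% were higher and 11.4% lower at 24 h than at 1 h. No difference between the 175 and the 91 was tested.

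**Figure D4:**
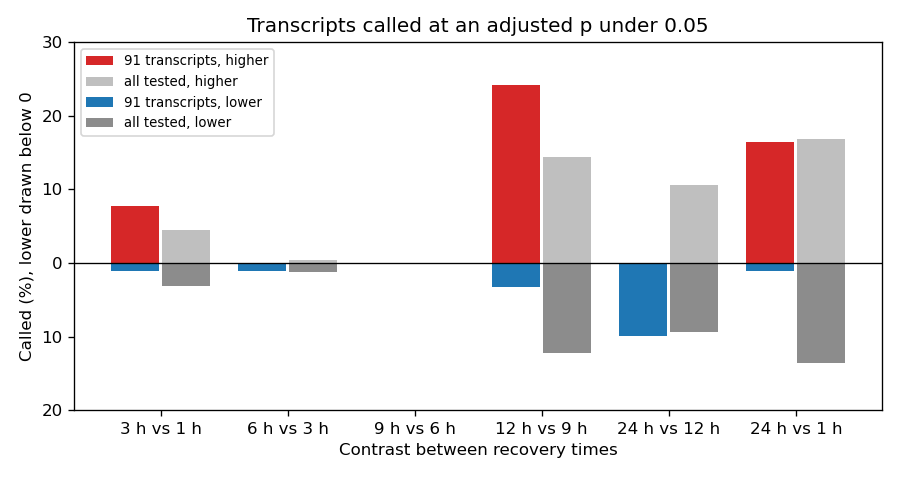
Share of transcripts called at an adjusted p under 0.05 (y axis, percent; higher above 0, lower below 0) in 6 contrasts between recovery times (x axis), for the 91 transcripts (coloured) and for all 16490 tested (grey). The bars at 12 h vs 9 h are 24.2% and 3.30% for the 91 beside 14.4% and 12.2% for all, and no bar stands at 9 h vs 6 h.

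A feature that the rule did not use is the number in the locus identifier. Of the 90 loci, 29 had another of the 90 within 10 numbers of their own, in 10 runs, and 13 had one at the very next number. The same count was 61 of 174 loci for the list raised at all 7 times and 24 of 103 for the list lowered after transfer; these counts rise with the length of a list. Whether the numbers follow the order of genes along the genome, and whether loci of a run are copies of each other, was not tested, and near-identical copies could share reads. The longest runs held 5 loci each. The first was BV898_16788, BV898_16789, BV898_16790, BV898_16796 and BV898_16801, with mean recovery levels from 4.68 to 54.4 scaled TPM and control means of 2.40 or less. The second was BV898_17430, BV898_17438, BV898_17441, BV898_17442 and BV898_17447, with mean recovery levels from 14.4 to 33.6 and control means of 6.37 or less.

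Transcripts of other loci with nearby numbers were read as well; having missed the rule on the same differences, they are not free of the choice. Of 91 other transcripts that passed the filter and lay 1 number away from one of the 90 loci, 24 or 26.4% had a mean difference from control of at least 1.2 over the 6 recovery times, beside 10.1% of all transcripts that passed the filter. Without the 90 loci the latter was 1209 of 12822, or 9.43%. The share was 13 of 100 at a distance of 2, 25 of 251 (9.96%) at 3 to 5, 48 of 424 (11.3%) at 6 to 10 and 805 of 9242 (8.71%) beyond 50. The adjacent transcripts had a median difference of 0.31 over the recovery times and of 0.01 at 0 h. Of these 91, 5 belonged to the transcripts raised at all 7 times. Next to loci of the list raised at all 7 times the share was 35 of 224 (15.6%), and next to those of the list lowered after transfer 12 of 141 (8.51%). Neighbours can share a nearest locus and are measured in the same libraries, so these shares carry no test.

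**Figure D5:**
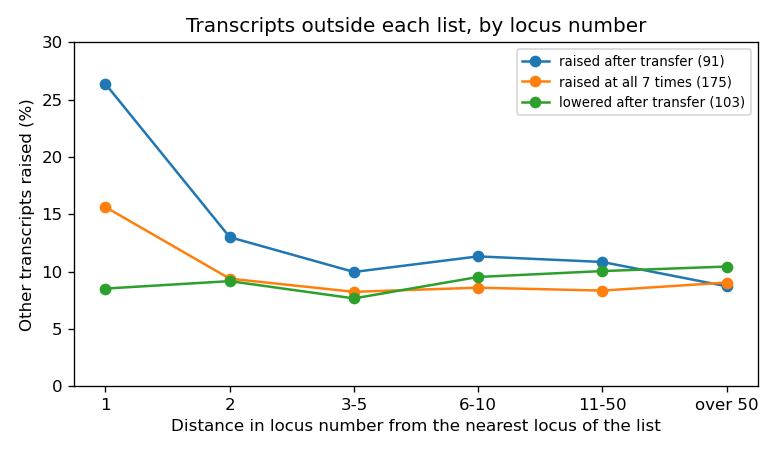
Share of transcripts outside a list with a mean log2 difference from control of at least 1.2 over the 6 recovery times (y axis, percent), by distance in locus number from the nearest locus of the list (x axis, binned), for 3 lists. For the 91 transcripts the share is 26.4% at a distance of 1, 13% at 2 and 8.71% beyond 50.

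Of the 10 runs, 7 held other transcripts that passed the filter, 23 in all. Their mean difference was above 0 for 19 of the 23 and at least 1.2 for 11. Among all transcripts of other loci that passed the filter, 51.6% were above 0 and 9.43% at least 1.2. This contrast was not tested. None of the 3 inside the run from BV898_07578 to BV898_07584 was above 0 (0 of 3). Between BV898_17430 and BV898_17447, 9 transcripts that passed the filter were not among the 91, and their mean differences ranged from 0.41 to 2.12, with 5 of them at 1.2 or more. BV898_17440 had a mean difference of 2.12 and missed the list through a difference of 0.64 at 0 h. Between BV898_16788 and BV898_16801 there were 6, from -0.38 to 2.84, of which BV898_16791 alone reached 1.2, with a mean difference of 2.84. BV898_17865, the only such transcript between BV898_17861 and BV898_17866, had a mean difference of 2.06 and lay at -0.75 at 0 h. BV898_10848, between BV898_10847 and BV898_10849, had a mean difference of 2.66 and belonged to the transcripts raised at all 7 times, at 1.23 at 0 h.

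BV898_14127 and BV898_14128, described here after their values were seen, had adjacent numbers and similar courses. BV898_14127 had 15.5, 12.4 and 26.2 scaled TPM in the controls and 12.1, 29.2 and 25.7 in the 0 h libraries, followed by 41.4, 54.2 and 49.3 (1 h), 121, 111 and 115 (3 h) and 285, 129 and 260 (24 h). BV898_14128 had 31.0, 24.96 and 48.2 in the controls and 30.0, 49.6 and 44.0 in the 0 h libraries, followed by 123, 135 and 109 (1 h), 298, 256 and 256 (3 h) and 439, 237 and 335 (24 h). Neither transcript had a recovery library below any control or 0 h library. Both rose from 1 h to 3 h, by 1.25 for BV898_14127 (limma, adjusted p = 0.0248) and by 1.14 for BV898_14128 (limma, adjusted p = 0.00633). From 1 h to 24 h the differences were 2.12 and 1.42 (limma, adjusted p = 1.29e-04 and 2.75e-04). From 12 h to 24 h they were 0.25 and 0.02 (limma, adjusted p = 0.641 and 0.964), so neither was called. In each library BV898_14128 lay above BV898_14127 in scaled TPM, a measure corrected for length.

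For 6 of the 90 loci the table lists 2 transcripts, 12 in all, of which 7 are among the 91. Both transcripts of BV898_07972 are. Its t01 averaged 11.2 ± 13.1 scaled TPM in the control and 76.8 ± 14.8 in the 24 h group, and its t02 0.417 ± 0.722 and 15.1 ± 5.91 (SD, n = 3). In BV898_06061 both transcripts were higher in recovery, t02 from 5.01 ± 1.68 in the control to 44.4 ± 8.18 at 12 h and t01, which is not among the 91, from 2.57 ± 2.27 to 12.0 ± 4.89 (SD, n = 3). For BV898_00101, t01 was listed at 0 in all 6 libraries of control and 0 h, and again in 3 recovery libraries, 3 h replicate 3, 6 h replicate 2 and 9 h replicate 1. Its means from 1 h to 12 h lay between 2.22 and 5.45 scaled TPM, and the 24 h libraries held 10.4, 33.6 and 13.1. For t02, which is not among the 91, the controls held 58.5, 54.6 and 45.8 and the 0 h libraries 46.1, 43.6 and 33.9. The 1 h libraries held 24.4, 24.1 and 24.9 and those of 24 h 18.4, 17.3 and 19.3. The 1 h and 24 h libraries of t02 lay below all control and 0 h libraries, and at 24 h t01 and t02 averaged 19.0 ± 12.7 and 18.3 ± 1.01 (SD, n = 3); the difference of t02 from control was not tested. In BV898_13620, t02 averaged 0.887 ± 1.54 in the control and 13.9 ± 5.28 in the 6 h group, and t01 4.11 ± 3.87 and 7.14 ± 4.33 (SD, n = 3). In BV898_17438 and BV898_19667 the transcript outside the 91 averaged no more than 6.45 scaled TPM in any group. Transcripts of a locus share reads that the estimation divides, so the split within a locus is less certain than the sum.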

How the data were processed

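RNA from 24 pools of whole animals was sequenced, 3 per group, with groups and replicate numbers taken from the sample titles and columns matched by the sample descriptions. The authors deposited TPM per transcript in 1 table, unscaled across libraries. The submitters' processing notes list RSEM 1.2.26, Bowtie2 2.2.9, FastQC 0.11.3 and DESeq2 1.22.2 without stating the role of each. Build and annotation: not given in the sources used here. Depth cannot be read from TPM, which leaves counting error unknown, and a listed 0 may be an estimate that failed. No pair of libraries was identical (0 pairs).

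TPM were divided by each library's median ratio to the geometric mean over the 12190 transcripts above 0 in all 24 libraries, and log2(scaled TPM + 1) was analysed, which understates changes of low transcripts. The 16490 transcripts that reached 1 TPM in 3 or more libraries entered limma 3.58.1 in R 4.3.3, in a single fit with a mean per group (trended and robust eBayes, two-sided, Benjamini-Hochberg adjustment within each contrast, threshold 0.05). With 3 libraries on each side, the smallest exact permutation p is 0.1. The p-values weigh differences of group means against the spread between pools, estimated over all 8 groups and moderated across transcripts. Python 3.11.15 with matplotlib 3.10.9 drew the figures. The fit was also run on simulated data with independent normal noise. Changes were planted only in transcripts with a mean above 3 on the log2 scale. That run therefore tells nothing about calls of transcripts below this level.

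The 91 transcripts, the contrasts and the lists were chosen with earlier results of these data known. The rule for named transcripts took, among the 91, the 2 extremes of mean difference, level, recovery range and closeness to each threshold, and the 2 largest called rises and falls in each contrast; loci in runs of identifier numbers and loci with several transcripts were named as well, the runs after their values were seen. Lists of genes by product name had been prepared, but the table gives no names, so 0 lists were used. Tried as alternatives were quantile normalization, unscaled TPM, other filters and pseudocounts, weights for library quality, a block for the replicate number, a fit of the compared groups alone, TPM summed per locus, other thresholds of the rule, and leaving out each library.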

Additional observations from a re-analysis of the deposited data

Results flagged for a closer look

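A direct test of 24 h against 1 h called 16 of the 91 transcripts (17.6%), beside 30.5% of all tested. The group means of that contrast had also entered the rule. The 3 transcripts named for it were taken from those called, so that they differed follows from the choice. BV898_13921 was higher at 24 h by 4.32 and BV898_08037 by 3.55 on the log2 scale. BV898_12280 was lower, at -0.82 (limma, adjusted p = 0.0481), a call lost in 12 of the 24 fits without 1 library. BV898_12280 averaged 40.7 ± 8.70, 98.2 ± 41.1 and 22.9 ± 6.25 scaled TPM in the 1, 12 and 24 h groups (SD, n = 3). Groups of 3 libraries are too small for a test of single outlying libraries.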

How the results depend on the processing

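The number of transcripts that met the rule, 91, was 48 with a pseudocount of 5 (28 shared), 149 and 53 with thresholds of 1 and 1.5 in place of 1.2, and 47 and 182 with limits of 0.25 and 1 at 0 h. It ranged from 79 to 135 when a library was left out; the lowest number, without control replicate 2, shared 56 with the 91 and the highest, without control replicate 3, shared 63. Only 20 of the 91 met the rule in all 24 omissions. Unscaled TPM gave 76 (71 shared), quantile normalization 87 (81 shared), group medians 104 (59 shared) and, as an alternative chosen after seeing the data, a rule without the 12 h group 92. Among the 91, the count for 12 h vs 9 h was 11 with unscaled TPM and 13 with a pseudocount of 0.1. That for 24 h vs 12 h was 5 with a pseudocount of 0.1, 14 with one of 5, 5 with quality weights and 5 with the compared groups alone. That for 6 h vs 3 h was 0 with a pseudocount of 0.1 and with the compared groups alone, 2 with a pseudocount of 5 and with the filter of 5 TPM, and 3 with quality weights. Quality weights gave 15 for 3 h vs 1 h and 32 for 24 h vs 1 h. Leaving out a library gave 5 to 10 for 3 h vs 1 h, 0 to 2 for 6 h vs 3 h, 0 to 0 for 9 h vs 6 h, 3 to 29 for 12 h vs 9 h, 4 to 13 for 24 h vs 12 h, 10 to 20 for 24 h vs 1 h and 27 to 42 for the F test. With the replicate number as a block the counts were 9, 2, 0, 26, 12 and 15 for these 6 contrasts and 42 for the F test. Deviations of libraries with the same number correlated between -0.14 and 0.24 between compared groups, so the numbers were not taken to pair the pools. The calls of BV898_05067, BV898_12280, BV898_18740 and BV898_19307 were lost in 2, 4, 1 and 2 of 8 other settings; none of the 13 named differences reversed. The cause of these changes was not tested, and the shares of all transcripts called in these other settings were not computed. Chosen after seeing the data, the 44 transcripts highest at 12 h were 28 with unscaled TPM, 42 with quantile normalization, 44 without control replicate 2 and 35 without 12 h replicate 3, the 24 adjacent transcripts were 18 with unscaled TPM, 24 with quantile normalization, 20 without control replicate 2 and 23 without 12 h replicate 3, and the 62 transcripts without overlap were 55, 61, 62 and 62. Low levels limit precision, by an amount that cannot be computed because sequencing depth is unknown.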
